A study of Rattus norvegicus with 196 samples.

Results

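Transcripts of Chrm1 and Adcy1 were followed through 196 RNA-seq libraries of 25 rat brain regions, 98 of control rats (Sham) and 98 of rats given fluoxetine (FT). They are 2 of the 29188 Ensembl transcripts counted in every library. They were picked by name from the study's list of named transcripts, in which Chrm1 is ENSRNOT00000024785 and Adcy1 is ENSRNOT00000011043. Other transcripts of either gene were not analysed here. The study had called each listed transcript in 2 or more regions of these same samples, so a test of FT against Sham on either gene is not independent of how the gene was chosen. All rats were males of the Long-Evans strain, 2 months old when treatment began. For 6 weeks FT rats took up fluoxetine with their drinking water, at a daily 18 mg/kg, while Sham rats drank plain water. Each library pooled punches of a single region from 10 brains. The pools carry the replicate numbers 1, 3, 4 and 5, the 40 animals of a treatment served every region, and the FT and Sham samples of a number were handled in parallel. In mPoA the FT libraries had the numbers 4 and 5 alone, and in Arc the Sham libraries did.

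Chrm1 encodes the M1 muscarinic acetylcholine receptor, which couples through Gq proteins to phospholipase C and so raises inositol trisphosphate, diacylglycerol and calcium inside the cell. It is known as the main muscarinic receptor of cortical and hippocampal neurons. Adcy1 encodes a membrane adenylyl cyclase that calcium and calmodulin stimulate, and it makes cyclic AMP, which activates protein kinase A and exchange proteins of Rap. It is known for strong expression in the dentate gyrus and cortex and for its part in synaptic plasticity. Fluoxetine blocks the serotonin transporter.

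The sequence around the start of each gene is shown because transcripts of both genes were more abundant in the telencephalon. The windows come from RefSeq on the GRCr8 assembly, a later build than the rn5 build on which reads were counted. They hold 250 bases before the annotated start and 50 after it, written 5′ to 3′ on the gene's strand. The annotated start was not checked on these reads. Capitals mark the letters GGGCGG (the GC box) and TGACG (the core of the cyclic AMP response element), searched on both strands.
Chrm1, chr1:214996109-214996408, plus strand: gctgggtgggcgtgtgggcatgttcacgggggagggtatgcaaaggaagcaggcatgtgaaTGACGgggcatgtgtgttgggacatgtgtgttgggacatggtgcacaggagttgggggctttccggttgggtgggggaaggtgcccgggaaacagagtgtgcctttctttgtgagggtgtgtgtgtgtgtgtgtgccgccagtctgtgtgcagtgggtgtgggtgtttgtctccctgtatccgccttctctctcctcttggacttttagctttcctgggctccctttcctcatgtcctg
Adcy1, chr14:86124869-86125168, plus strand: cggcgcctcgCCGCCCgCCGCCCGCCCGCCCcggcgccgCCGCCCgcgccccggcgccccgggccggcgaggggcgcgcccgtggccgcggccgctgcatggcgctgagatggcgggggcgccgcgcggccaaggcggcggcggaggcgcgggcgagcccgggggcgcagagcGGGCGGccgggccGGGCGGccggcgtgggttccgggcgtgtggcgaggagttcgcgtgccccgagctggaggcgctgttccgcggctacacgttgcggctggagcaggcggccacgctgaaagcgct
The Chrm1 window held 57.7% G and C and 7 CpG dinucleotides, and the median of 33469 RefSeq windows of this length was 51.7% and 7. The Adcy1 window held 84.7% G and C and 60 CpG, more CpG than 99.9% of those windows. It contained 7 matches to GGGCGG, some of which overlap, and the Chrm1 window contained none. Over all windows, 33.1% held at least 1 GC box. TGACG occurred once in the Chrm1 window and not in that of Adcy1, against 21.2% of all windows. The E-box CANNTG was found at 3 places in the Chrm1 window and at none in that of Adcy1 (72.1% of all windows hold it). TATAAA was in neither window. In the Adcy1 window, an ATG before the annotated start opens a reading frame with no stop up to the window's end. That window can thus hold coding bases, and its letters need not be those of a promoter. A match is a run of letters only, and no binding was measured in these libraries.

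Between 4586 and 50893913 reads per library fell on transcripts, with a median of 11921178. Libraries of replicate 3 stood apart from the rest. Their 50 most abundant transcripts took a median of 68.6% of counts in Sham and 67.7% in FT, against medians from 28.2% to 37.5% for the other numbers. Across 10265 abundant transcripts, 2 libraries labelled replicate 1 were more like replicate 3 libraries than like their own number. The Sham ILC library of replicate 1 had a median r of 0.820 with replicate 3 libraries and 0.773 with replicate 1, and the FT CGC library of replicate 1 had 0.803 and 0.755. Reads ambiguous between features made up 21.8% and 24.5% in these libraries, against a median of 5.52% over all libraries. The Sham libraries of replicate 3 from ILC and Nts were shallow, with 543403 and 4586 reads. Neither held a read of Chrm1 or Adcy1, which allows up to 5.52 and 654 CPM (reads scaled to the same fixed total in every library), counting error only. These bounds use the plain library totals, without the further normalization that the levels below have. The study removed 2 CGC replicates as outliers, and its methods text does not give their numbers. Here the CGC pair of replicate 1, which holds the FT CGC library described above, was left out of the FT test. Results that rest on these libraries are given with and without them.

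Region labels were checked on the few marker genes that have a name in the list. Ppp1r1b, Drd2 and Adora2a, markers of striatal projection neurons, had their 2 highest Sham levels in NAcC and NAcSh. Penk, on the same list, was highest in BLA. Th and Slc6a3, which make and take up dopamine, were highest in VTA, and Th was second highest in LC. In the region labelled PVN, Oxt and Avp were low, at means of 5.85 and 1.83 CPM, while the thalamic markers Tcf7l2 and Slc17a6 had their second highest level there after MDT. Hcrt, a marker of LH, was highest in VMH and second highest in LH. Markers of neurons in general, endothelial cells, the dentate gyrus, the raphe and Arc have no name in the list, so that those labels were not checked.

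Chrm1 was mainly a telencephalic transcript in these libraries. In Sham its highest mean levels on the log2 scale were in dorDG, NAcSh, InsularC, venDG, CMA, PLC, BLA, NAcC and CGC, all telencephalic, and its lowest were in Arc and Nts. Levels are CPM after scaling by TMM, a normalization of library size, and log2 levels add a prior count of 2. In the Sham dorDG, Chrm1 had 3.34 CPM in replicate 1, 60.6 in replicate 3, 2.79 in replicate 4 and 3.80 in replicate 5, from 43, 204, 132 and 102 reads. The replicate 3 value lay far above the other 3, which were close to each other. The mean was 17.6 ± 28.7 CPM (SD, n = 4), and without replicate 3 it was 3.31 ± 0.51 CPM (SD, n = 3). In NAcSh the 4 Sham values were 6.20, 74.5, 1.13 and 1.97 CPM in the same order, and in PLC they were 2.70, 85.5, 0.91 and 2.26 CPM. InsularC, venDG, CMA, BLA, NAcC and CGC had means of up to 22.6 CPM, each with its replicate 3 library highest.

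The septal regions and BNST were lower than the other telencephalic regions. BNST had a mean of 6.74 CPM, MS 2.29 CPM and LS 2.17 CPM. In ILC the Sham values were 87.0, 0, 1.68 and 1.69 CPM, the first from the replicate 1 library described above and the zero from the shallow one. Outside the telencephalon, Sham means ranged from 0.022 CPM in Nts to 2.20 CPM in HB. In the 12 regions there, 7 of 46 Sham libraries and 22 of 46 FT libraries had no Chrm1 read, and the median was 2 reads in Sham and 1 in FT. Such counts cannot order those regions. In the Sham order, the gap between each of the 24 pairs of neighbouring regions was smaller than the mean of their SDs, so no neighbours were separated beyond the spread between replicates. With replicate 3 and the Sham ILC library of replicate 1 left out, Spearman's rho between the 2 orders was 0.985 over 25 regions.

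**Figure D1:**
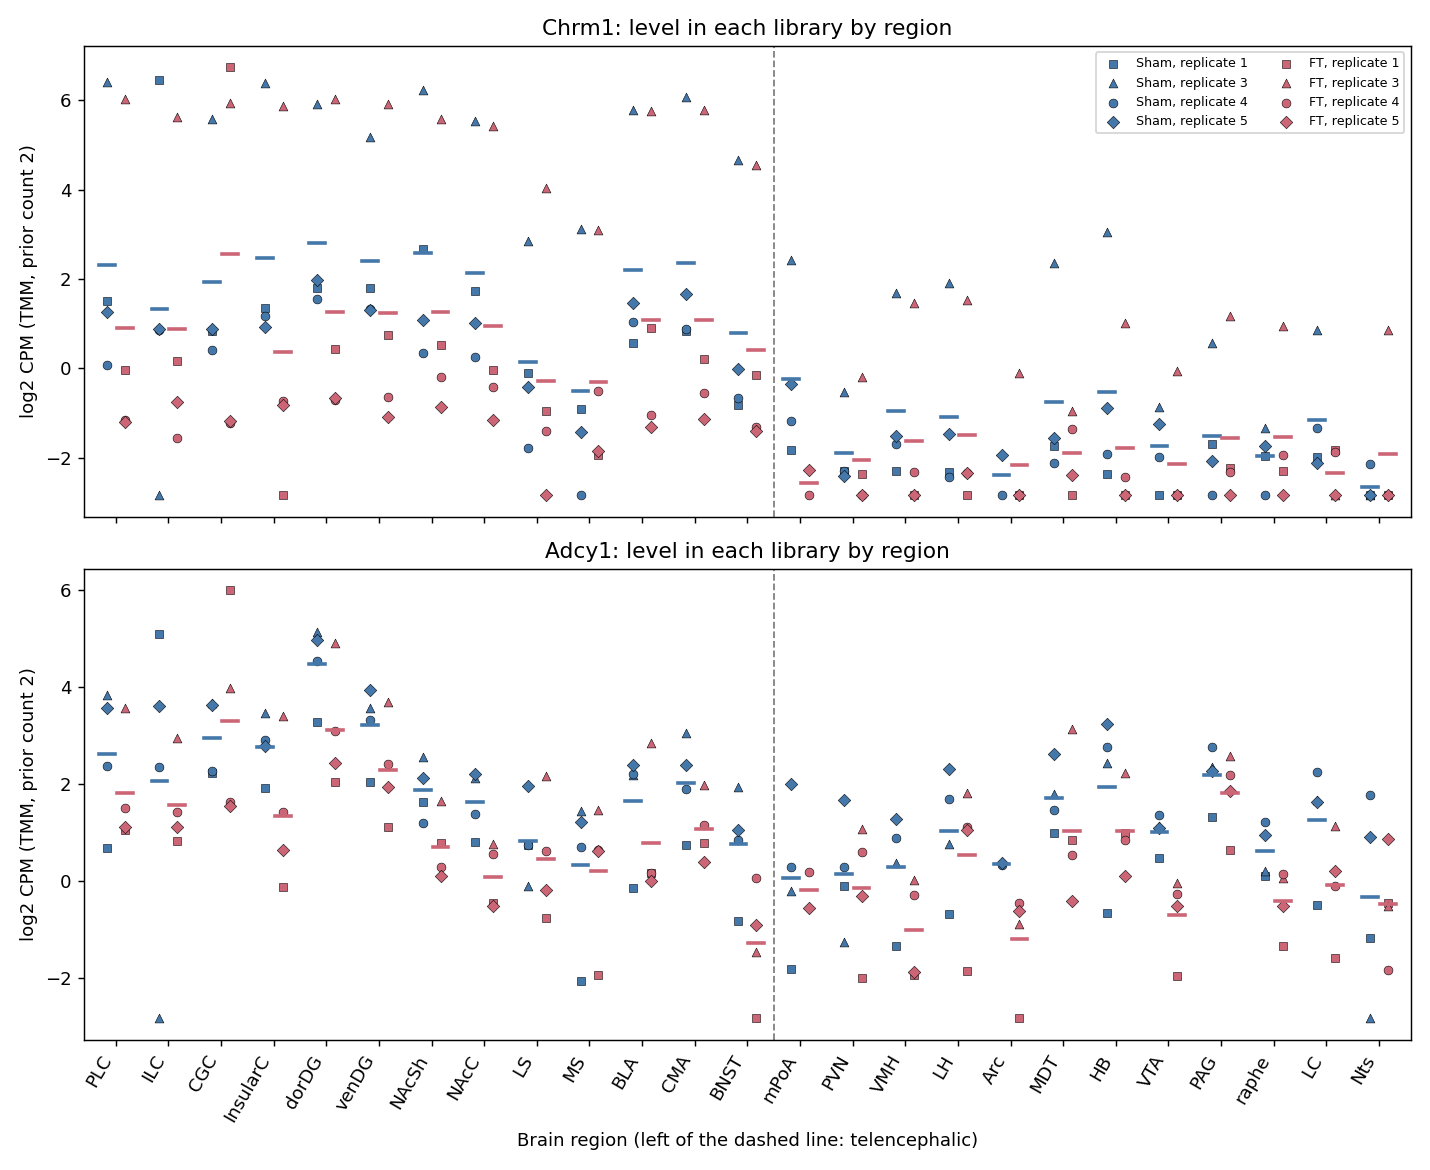
Level of Chrm1 and Adcy1 in every library, as log2 CPM on the y axis with a prior count of 2, for 25 regions on the x axis; blue marks are Sham, red marks FT, the marker shape gives the replicate number and bars are means. Where there is a replicate 3 library (triangle), it holds the highest Chrm1 level of its group, apart from ILC and Nts in Sham and CGC and LC in FT, and the mean of Adcy1 in Sham is highest in dorDG.

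Adcy1 was present more widely, and its highest Sham level was in the dentate gyrus. In dorDG its Sham libraries had 9.63, 34.8, 23.2 and 31.3 CPM in replicates 1, 3, 4 and 5, from 124, 117, 1099 and 839 reads. Replicate 1 was the lowest, and replicate 3 did not stand apart from 4 and 5. The mean was 24.7 ± 11.2 CPM (SD, n = 4). In venDG the values were 3.97, 11.7, 9.80 and 15.1 CPM, with a mean of 10.1 ± 4.7 CPM (SD, n = 4). The cortical regions CGC, InsularC and PLC followed, with means of 8.50 ± 4.47, 7.14 ± 2.96 and 8.10 ± 5.86 CPM (SD, n = 4 each). Sham ILC again had its highest value, 34.1 CPM, in the replicate 1 library that stood apart and none in the shallow one of replicate 3.

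Outside the telencephalon, Adcy1 was highest in PAG, HB and MDT. PAG had 2.35, 4.94, 6.67 and 4.68 CPM in the Sham libraries, a mean of 4.66 ± 1.77 CPM (SD, n = 4), and stood sixth in the order of log2 levels. HB had 0.49, 5.26, 6.61 and 9.23 CPM, with replicate 1 below the rest. NAcSh and NAcC, 2 regions among the highest for Chrm1, were 10th and 13th for Adcy1, at 3.75 and 3.17 CPM. Hypothalamic and preoptic regions had means from 1.13 to 2.48 CPM. Nts was the lowest on the log2 scale with its shallow replicate 3 library included. Without replicate 3 and the Sham ILC library of replicate 1, Nts stood 20th, at 1.77 CPM, and MS was the lowest. Adcy1 had at least 1 read in all libraries except 2 of Sham and 2 of FT. Of 24 neighbour pairs in the Sham order, the gap exceeded the mean of the SDs only between dorDG and venDG, at 1.27 on the log2 scale.

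In FT the order of regions was close to that in Sham. Spearman's rho between the Sham and FT region means was 0.83 for Chrm1 and 0.90 for Adcy1, over 25 regions. CGC stood first for both genes in FT, through its replicate 1 library. With that library and replicate 3 left out, the highest FT levels of Chrm1 on the log2 scale were in NAcSh, at 0.81 ± 0.44 CPM, dorDG, at 0.73 ± 0.43 CPM, and venDG, at 0.79 ± 0.66 CPM (SD, n = 3 each), and those of Adcy1 were in dorDG, at 5.85 ± 2.25 CPM, and venDG, at 3.62 ± 1.58 CPM (SD, n = 3 each). NAcSh, dorDG and venDG were thus among the highest in both treatments. Between single replicates of Sham, rho ranged from 0.63 to 0.86 for Chrm1 and from 0.50 to 0.75 for Adcy1, so the order was shared by pools of different animals.

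The difference between the telencephalon and the rest of the brain was fitted over all Sham libraries with edgeR's quasi-likelihood test, with a term per region and replicate number as a block. A call needed a change of at least 25% upwards, or as large a ratio downwards, and a p no greater than 0.1 after Benjamini-Hochberg adjustment over 17008 transcripts. Chrm1 was higher in the 13 telencephalic regions by 4.14 on the log2 scale (SE 0.26, adjusted p = 8.07e-25). Adcy1 was higher there by 1.30 (SE 0.16, adjusted p = 5.52e-11). Of all transcripts, 43.8% were called in this contrast and 19.1% were higher in the telencephalon, so a call by itself is common. A larger absolute difference than that of Chrm1 was found for 0.0882% of transcripts, and than that of Adcy1 for 6.73%. In the FT libraries, from other animals, the differences were 4.63 for Chrm1 (SE 0.33, adjusted p = 1.90e-21 from edgeR) and 1.26 for Adcy1 (SE 0.21, adjusted p = 1.54e-07 from edgeR), against 44.2% of transcripts called and 20.3% higher. Regions of a pool share animals, so p-values over libraries are too small as statements about animals.

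By pool, the telencephalic mean of Chrm1 exceeded that of the other regions in 4 of 4 Sham pools and 4 of 4 FT pools. The Sham differences in mean log2 CPM were 3.56, 4.02, 2.34 and 2.49 in replicates 1, 3, 4 and 5. An exact two-sided sign-flip permutation test over 4 pools gave p = 0.125, the smallest it can give. Within replicate 4, Chrm1 averaged 1.35 CPM in telencephalic Sham libraries and 0.105 CPM in the others. Within replicate 3 the averages were 46.0 and 2.67 CPM, so that the regional difference was present at both overall levels. Adcy1 also differed in the same direction in 8 of 8 pools, by 1.56, 1.73, 0.64 and 1.06 in Sham. In Sham replicate 4 the telencephalic libraries averaged 5.56 CPM of Adcy1 and the others 3.03 CPM, and only 3 of 13 telencephalic regions lay above every other region, against 11 of 13 for Chrm1.

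Of 8 contrasts between related regions, dorDG against venDG separated Adcy1 most steadily. It was higher in dorDG in 8 of 8 pools, by 1.04 to 1.56 on the log2 scale in the Sham pools and by 0.93, 1.22, 0.68 and 0.50 in the FT pools of replicates 1, 3, 4 and 5. The joint edgeR fit gave 1.29 in Sham (SE 0.48, adjusted p = 0.207) and did not call it, with 2.65% of transcripts called. Without the Sham libraries of ILC replicates 1 and 3 and Nts replicate 3, the estimate was 1.29 and the adjusted p from edgeR was 0.0826, which passes, with 3.09% called. Chrm1 did not separate dorDG from venDG, with an edgeR estimate of 0.44 in Sham (SE 0.56, adjusted p = 0.909) and 5 of 8 pools higher in dorDG. Chrm1 was higher in NAcSh than in NAcC in 8 of 8 pools, by 0.58 in the joint Sham fit (SE 0.57, adjusted p = 1 from edgeR) and by 0.38 in that of FT (SE 0.70, adjusted p = 0.974 from edgeR). Its pool differences were 0.93, 0.69, 0.094 and 0.062 in Sham replicates 1, 3, 4 and 5, some of them near 0. In the same order they were 0.54, 0.16, 0.22 and 0.29 in FT. No transcript was called in this contrast in Sham, and 2.14% were in FT.

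Both genes were called lower in PLC than in ILC in Sham, by 2.80 for Chrm1 on the log2 scale (SE 0.60, adjusted p = 0.00236 from edgeR) and by 1.88 for Adcy1 (SE 0.53, adjusted p = 0.0294 from edgeR), where 4.88% of transcripts were called. These calls rest on the Sham ILC library of replicate 1. Without the libraries that stand apart, the values were 0.28 and 0.033 with an adjusted p of 1 from edgeR, and in FT the estimates were 0.14 and 0.29 with no call. In FT, both were called higher in CGC than in InsularC, by 4.21 for Chrm1 and 3.40 for Adcy1 (adjusted p = 5.4e-05 and 0.000207 from edgeR, 9.33% of transcripts called). Without that CGC library of replicate 1 the estimates were 0.21 and 0.72, with an adjusted p of 1 from edgeR. It held 107 CPM of Chrm1 and 63.7 CPM of Adcy1, while those of replicates 4 and 5 held 0.29 and 0.30 CPM of Chrm1 and 2.96 and 2.77 CPM of Adcy1. In Sham the same contrast was -0.65 for Chrm1 and 0.21 for Adcy1, with no call. The remaining contrasts, BLA against CMA, LS against MS, MDT against HB and raphe against LC, called neither gene in either treatment.

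Across the 25 Sham region means, Chrm1 and Adcy1 had a Pearson's r of 0.75 and a Spearman's rho of 0.70 on the log2 scale. Without replicate 3 and the Sham ILC library of replicate 1, r was 0.70 and rho 0.62. The points share animals, libraries and the replicate 3 shift, so this is a description with no test. Within single replicates of Sham the r ranged from 0.58 to 0.84. Within the 13 telencephalic regions r was 0.78, and within the 12 others it was 0.42. Adcy1 was the 90th closest to Chrm1 among 1844 named transcripts, and Chrm1 the 32nd closest to Adcy1. Some regions took different places in the 2 Sham orders. PAG was sixth for Adcy1 and 20th for Chrm1, and HB was ninth and 15th. NAcSh was 10th for Adcy1 and second for Chrm1, and NAcC was 13th and eighth.

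**Figure D2:**
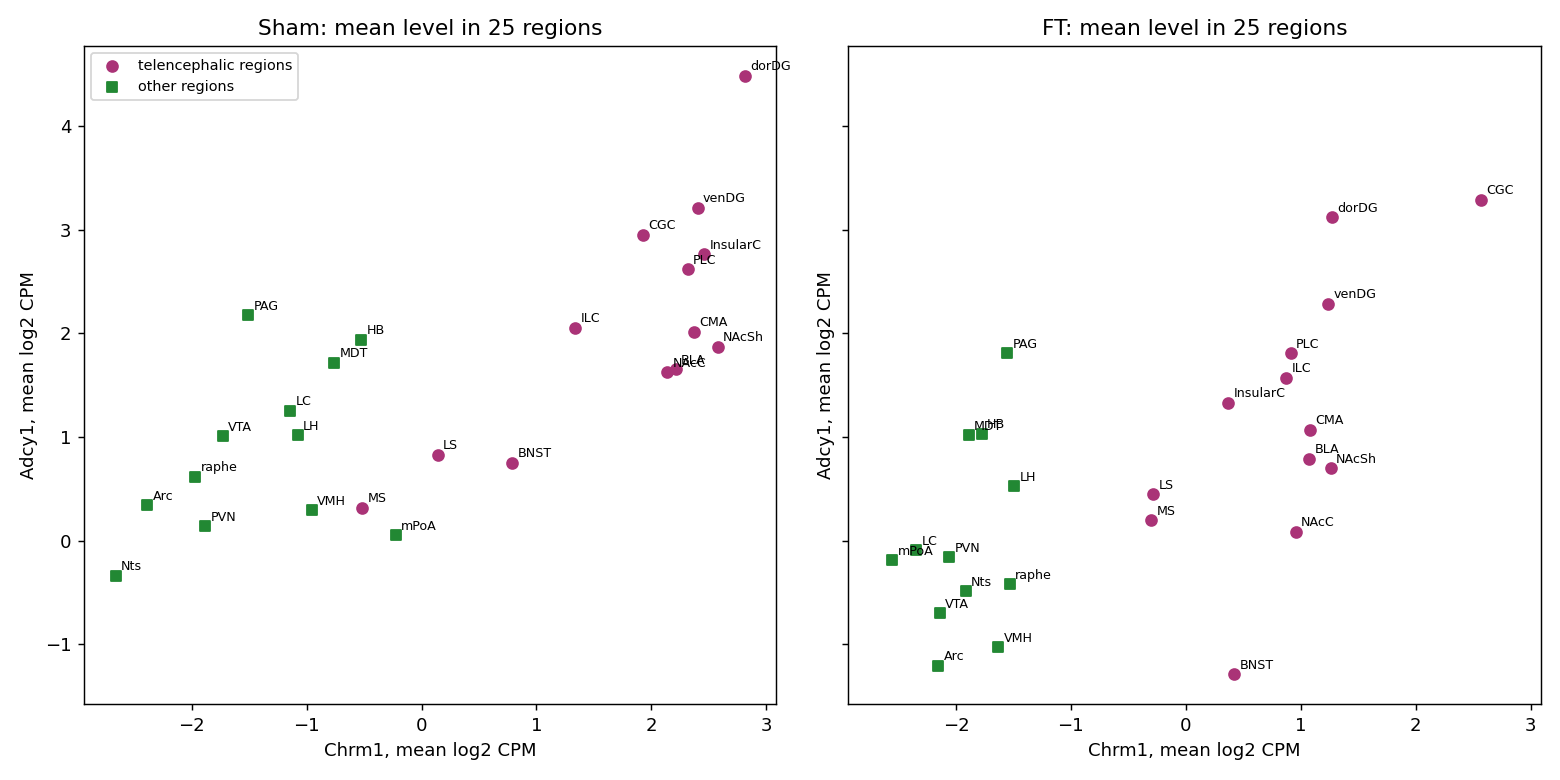
Mean log2 CPM of Chrm1 (x axis) against that of Adcy1 (y axis) in 25 regions, for Sham on the left and FT on the right; circles are telencephalic regions and squares the others, and all libraries are included. The Sham r was 0.75, with dorDG highest on both log2 axes, and CGC in FT includes its replicate 1 library.

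The transcripts most like Chrm1 over the 25 Sham region means were Rprml (r = 0.97), Itpka (0.95), Icam5 (0.94), Mast3 (0.93) and Ddn (0.93). Itpka encodes a kinase of inositol trisphosphate, the second messenger made downstream of Chrm1. Icam5, telencephalin, is an adhesion molecule of telencephalic neurons, and Ddn, dendrin, lies in dendrites. The most opposed were Glra1, a subunit of the inhibitory glycine receptor (r = -0.86), and Sncg (-0.81). The transcripts most like Adcy1 were Serinc2 (r = 0.91), Gpr22 (0.90), Zfp238 (0.90), Kcnj3 (0.87) and Gal3st3 (0.86). Kcnj3 encodes a potassium channel opened by G protein beta-gamma subunits, and Gpr22 is an orphan receptor. Arhgap36 (r = -0.78) and Pts (-0.72) were the most opposed to Adcy1. No transcript was among the closest 5 of both genes. All of these names come from the study's list alone.

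Chrm1 also differed between replicate numbers. In the joint Sham fit, replicate 3 exceeded the mean of replicates 1, 4 and 5 by 4.52 on the log2 scale for Chrm1 (SE 0.22, adjusted p = 4.03e-32 from edgeR) and by 0.51 for Adcy1 (SE 0.20, adjusted p = 0.0200 from edgeR). In FT the differences were 6.16 (SE 0.26, adjusted p = 1.88e-36 from edgeR) and 1.71 (SE 0.23, adjusted p = 5.06e-10 from edgeR). This contrast was added after the levels were seen. Of all transcripts, 73.7% were called in Sham and 76.8% in FT, and 0.994% and 0.32% had a larger absolute difference than Chrm1. With median-ratio size factors in place of TMM, the Chrm1 difference in Sham was 4.02 and that of Adcy1 was -0.0034, so the Adcy1 difference in Sham depends on the scaling. In telencephalic libraries the summed level of Camk2a and Nrgn, the 2 named markers of forebrain excitatory neurons out of 7 in the list, had a median of 1279 CPM in Sham replicate 3, against 377, 91.1 and 273 CPM in replicates 1, 4 and 5. The FT medians were 2464 CPM in replicate 3 and 550, 210 and 247 CPM in the others. The oligodendrocyte marker Opalin, the only named one of 9, had medians of 49.2 CPM in Sham replicate 3 and from 81.6 to 162 CPM in the others, and 3 named astrocyte markers of 8 had 353 CPM and from 289 to 430 CPM. The part of these markers in the Chrm1 difference was not tested.

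The effect of fluoxetine was then tested within each region, with the replicate number as a block. Chrm1 had enough reads for edgeR's filter in 13 of 25 regions, and its log2 fold change (FT minus Sham) was negative in 13 of 13, from -3.58 to -0.30 with a median of -1.26. Adcy1 was tested in 20 regions and was negative in 20 of 20, from -2.20 to -0.23 with a median of -1.02. The median over all transcripts lay between -0.05 and 0.05 in every region. At the threshold, edgeR called Chrm1 lower in mPoA and Adcy1 in 0 regions, where 0.913% of all transcript and region combinations were called lower. An unadjusted p under 0.05 was found in 8 of the 13 regions for Chrm1 and 9 of the 20 for Adcy1, against 14% of all combinations in either direction. DESeq2, the study's tool, with the same block called Chrm1 lower in PLC, InsularC, dorDG, NAcSh, NAcC and CMA, and Adcy1 lower in dorDG and NAcSh, against 1.75% of combinations called lower. Neither tool called either gene higher anywhere. The directions of the study's own calls are not reported here. The edgeR filter can be passed on the reads of 1 treatment alone, as by Chrm1 in mPoA, where FT had 0 and 2 reads. Without the filter, Chrm1 was negative in 23 of 25 regions and positive in 2, up to 0.55, and Adcy1 was negative in 25 of 25. DESeq2 also gave Chrm1 23 negative and 2 positive estimates, up to 0.51. In these bulk samples, fewer cells of a type and less RNA per cell cannot be told apart.

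**Figure D3:**
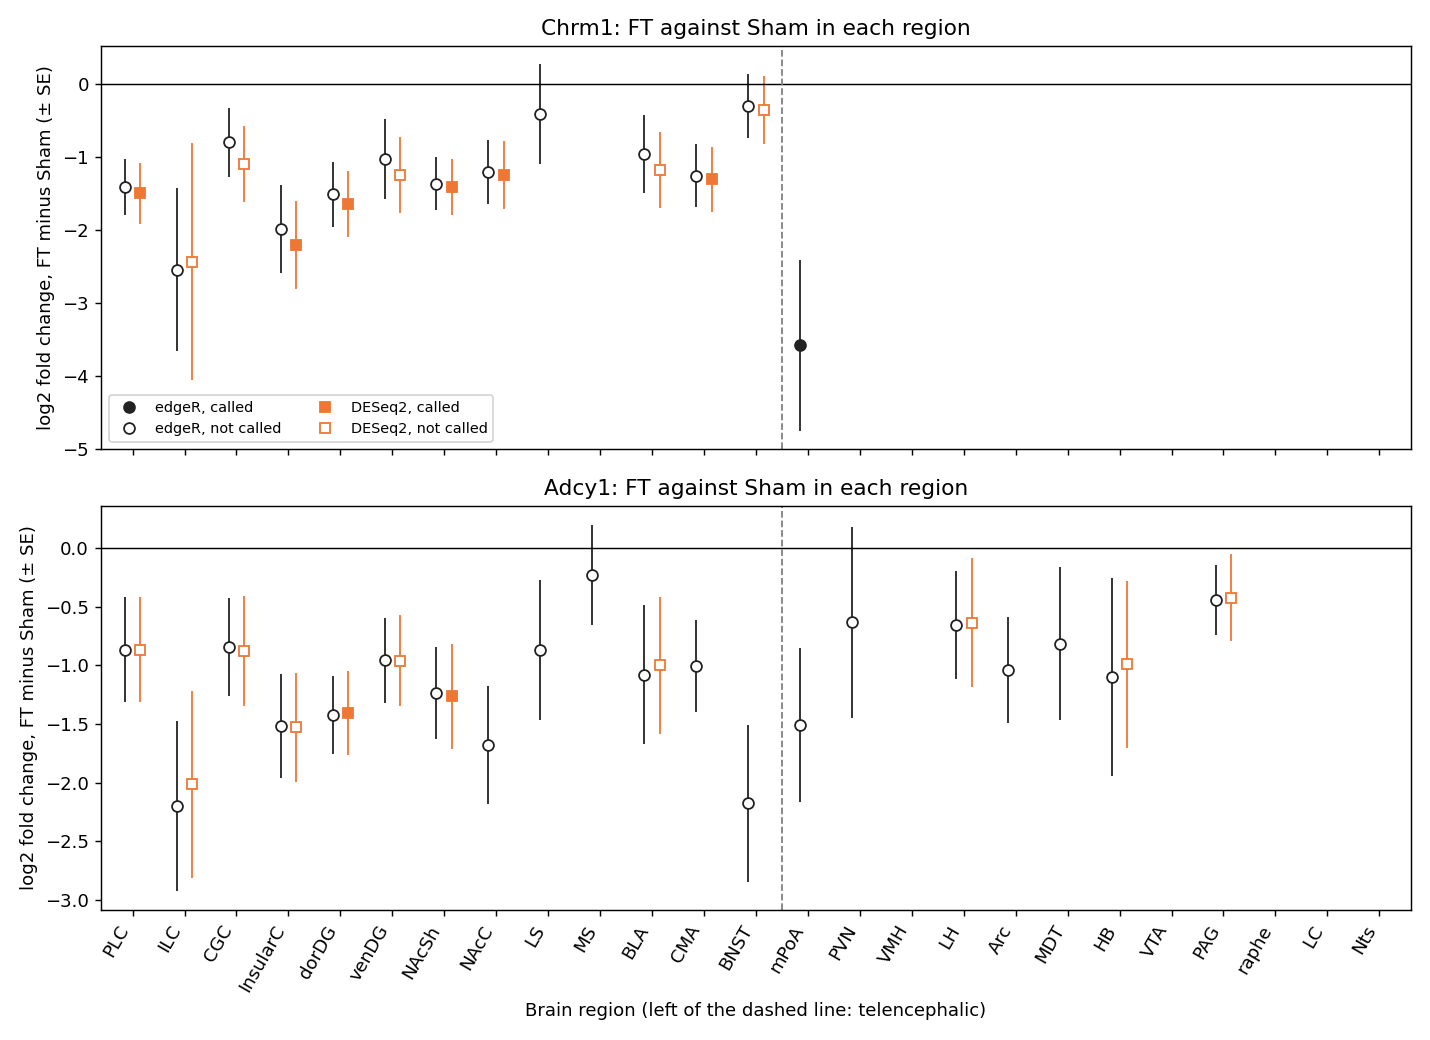
Log2 fold change of FT against Sham (y axis, ± SE) for Chrm1 and Adcy1 in each region (x axis), from edgeR (circles) and DESeq2 (squares); filled marks passed the threshold, and a missing mark means that the tool gave no adjusted p there. Every drawn mark lies below 0. Filled edgeR marks are for Chrm1 in mPoA only, and filled DESeq2 marks are in 6 regions for Chrm1 and 2 for Adcy1. Over all 25 regions DESeq2 gave Chrm1 2 positive estimates, which have no mark here.

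In dorDG, where both genes had their highest Sham level on the log2 scale, the FT libraries held 1.22, 64.9, 0.47 and 0.49 CPM of Chrm1 in replicates 1, 3, 4 and 5, from 15, 181, 8 and 10 reads. Against the paired Sham values above, FT was lower in replicates 1, 4 and 5 and about equal in replicate 3, with log2 ratios of -1.36, 0.097, -2.26 and -2.65. The 2 groups overlapped because of replicate 3. The fold change was -1.51 (SE 0.45, adjusted p = 0.247) with edgeR and -1.64 (SE 0.45, adjusted p = 0.0389) with DESeq2, where 1.59% of transcripts were called lower. Without replicate 3, edgeR gave -2.35 (adjusted p = 0.0507), which passes, with 1.98% of transcripts called lower. Adcy1 in the FT dorDG had 3.97, 30.1, 8.34 and 5.23 CPM, from 49, 84, 142 and 107 reads. It was lower in 4 of 4 pairs, with log2 ratios of -1.25, -0.21, -1.46 and -2.55, smallest again in replicate 3. The fold change was -1.43 (SE 0.33, adjusted p = 0.234) with edgeR and -1.41 (SE 0.36, adjusted p = 0.0203) with DESeq2. Without replicate 3 it was -1.83 (adjusted p = 0.0415 from edgeR).

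In venDG, Adcy1 had 2.02, 12.8, 5.17 and 3.66 CPM in the FT libraries and was lower in 3 of 4 pairs. The fold change of -0.96 (SE 0.36, adjusted p = 0.383 from edgeR) was not called, nor by DESeq2 (adjusted p = 0.199). In NAcSh, Adcy1 had 1.57, 2.99, 1.07 and 0.94 CPM in FT against 2.94, 5.70, 2.14 and 4.20 CPM in Sham. FT was lower in 4 of 4 pairs, though the highest FT library lay among the Sham values. The fold change was -1.24 (SE 0.39, adjusted p = 0.172) with edgeR and -1.27 (SE 0.45, adjusted p = 0.0780) with DESeq2, where 3.66% of transcripts were called lower. Chrm1 in the same NAcSh libraries had 1.29, 47.8, 0.73 and 0.41 CPM in FT and was lower in 4 of 4 pairs as well. Its fold change was -1.36 (SE 0.37, adjusted p = 0.130) with edgeR and -1.41 (SE 0.39, adjusted p = 0.0132) with DESeq2.

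The other 4 regions in which DESeq2 called Chrm1 showed the same order of groups within pairs. In PLC the FT libraries had 0.83, 65.3, 0.31 and 0.30 CPM, from 13, 262, 3 and 5 reads, and the fold change was -1.50 (SE 0.42, adjusted p = 0.0519 from DESeq2, 0.624% of transcripts called lower). In InsularC they had 0, 58.3, 0.46 and 0.43 CPM, where no read in replicate 1 allows up to 0.173 CPM. That bound is before TMM scaling, and 10 reads of Adcy1 in the same library came to 0.77 CPM after it. The InsularC fold change was -2.21 (SE 0.61, adjusted p = 0.0822 from DESeq2, 0.353% called lower). In NAcC it was -1.24 (SE 0.46, adjusted p = 0.0951 from DESeq2, 3.54% called lower) and in CMA -1.30 (SE 0.45, adjusted p = 0.0869 from DESeq2, 1.61% called lower). Chrm1 was lower in FT in 4 of 4 pairs in each of PLC, InsularC, NAcC and CMA. The edgeR estimates there were -1.41, -1.99, -1.20 and -1.26, with adjusted p from 0.218 to 0.654. In ILC, edgeR gave -2.54 for Chrm1 (SE 1.12, adjusted p = 0.674), and with only pairs 4 and 5 it gave -2.41 (adjusted p = 0.0257), with 2.1% of transcripts called lower. Adcy1 in ILC was at -2.20 (SE 0.73, adjusted p = 0.512 from edgeR), and with those pairs alone at -1.82 (adjusted p = 0.00424 from edgeR). Both genes thus passed in ILC once the pairs holding its high and its shallow Sham library were left out, a choice made after the values were seen. In CGC the estimates were -0.80 for Chrm1 and -0.84 for Adcy1, and with the pair of replicate 1 kept they turned to 0.30 and 0.16, with no call either way.

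The mPoA call of Chrm1 rests on few reads. FT had 0 and 2 reads in replicates 4 and 5, against 8 and 12 in the paired Sham libraries, while the unpaired Sham libraries of replicates 1 and 3 had 3 and 22. All FT values lay below all Sham values, as they did for 10.4% of transcripts with at least 15 reads in mPoA. The edgeR fold change was -3.58 (SE 1.17, adjusted p = 0.0499), with 4.74% of transcripts called lower in mPoA. DESeq2 gave -3.84 and no adjusted p, and without the replicate block the call was lost (adjusted p = 0.484 from edgeR). Without replicate 3, Chrm1 did not pass the filter on low counts in mPoA. Over the 2 complete pairs the ratio of FT to Sham reads, each divided by its library totals, was 0.0843, with a 95% exact interval from 0.00956 to 0.347 that covers counting error only. FT and Sham values of Adcy1 did not overlap in 3 regions, NAcC, VTA and Arc, all with FT lower. Of transcripts with at least 15 reads in the region, 1.5% in NAcC, 1.01% in VTA and 15.2% in Arc, which has 2 Sham libraries, had every FT value under every Sham value. In NAcC the FT libraries had 0.58, 1.56, 1.33 and 0.56 CPM and the Sham libraries 1.60, 4.20, 2.46 and 4.44 CPM. The fold change was -1.68 (SE 0.50, adjusted p = 0.178 from edgeR), with 0.152% of transcripts called lower. In VTA the FT libraries had 0.12, 0.82, 0.68 and 0.56 CPM and the Sham libraries 1.24, 2.04, 2.41 and 1.98 CPM, but Adcy1 did not pass the edgeR filter there, and 0% of transcripts were called lower. In Arc, 4 FT libraries lay between 0 and 0.58 CPM and the 2 Sham libraries at 1.12 and 1.14 CPM, with a fold change of -1.04 (SE 0.45, adjusted p = 0.166 from edgeR) and 10.8% of transcripts called lower. DESeq2 gave Adcy1 no adjusted p in these regions.

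The size of the difference depended on the replicate pair. Chrm1 was lower in FT in 24 of 25 regions in pair 5 and in 18 of 25 in pair 4, with median log2 ratios of -1.63 and -0.64. It was lower in 17 of 22 regions in pair 1, with a median of -0.58, and in 13 of 23 in pair 3, with a median of -0.03. Adcy1 was lower in 25 of 25 regions in pair 5, 24 of 25 in pair 4 and 16 of 22 in pair 1, with medians of -2.01, -0.90 and -1.01. In pair 3 it was lower in 12 of 23, with a median of -0.06. Chrm1 was lower in every pair in 8 regions and Adcy1 in 11, and neither was higher in every pair of any region. These counts include mPoA for both genes and Arc for Adcy1, which have pairs 4 and 5 alone. They also include VMH for Chrm1, with at most 9 reads in a library. The share of all transcripts lower in every pair was not computed, so these counts have no yardstick. Regions of a pair share animals, so the pair was taken as the unit over the 22 regions with 4 complete pairs. The mean log2 ratio over regions was -1.06, 0.29, -0.64 and -1.56 for Chrm1 in pairs 1, 3, 4 and 5, a mean of -0.74 ± 0.79 (SD, n = 4 pairs, exact two-sided sign-flip permutation p = 0.25). For Adcy1 it was -0.93, 0.29, -1.12 and -1.95, a mean of -0.93 ± 0.93 (SD, n = 4 pairs, exact p = 0.25). With 4 pairs this test cannot go below 0.125, which both genes reached when ILC and Nts were left out, with means of -0.83 and -0.99. With a pair left out, the means ranged from -1.09 to -0.47 for Chrm1 and from -1.33 to -0.59 for Adcy1, lowest without pair 3 and highest without pair 5. The 0.29 in pair 3 rests on the shallow Sham libraries of those 2 regions.

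**Figure D4:**
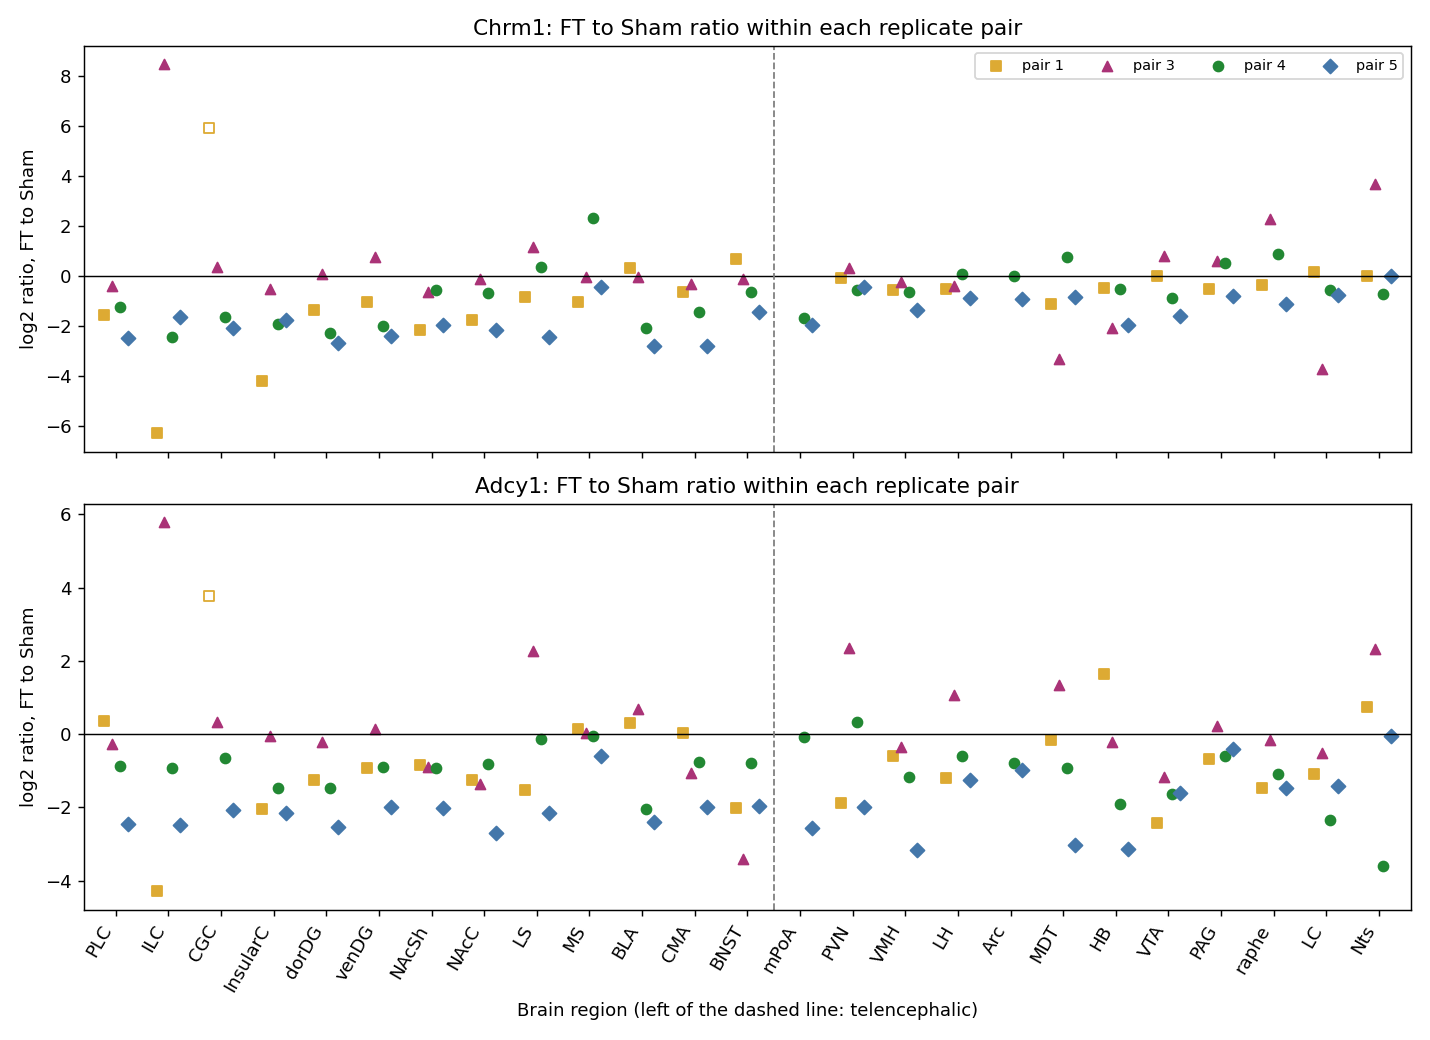
Log2 ratio of FT to Sham (y axis, prior count 2) within each replicate pair for 25 regions (x axis), with Chrm1 above and Adcy1 below; the open square is the CGC pair left out of the test. Pair 5 (diamonds) lies at or below 0 in every region for both genes, and pair 3 (triangles) scatters around 0, with its highest point in ILC, where the Sham library was shallow.

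Whether the response was larger in the telencephalon, where Chrm1 is mostly found, was tested on the same pairs. The telencephalic mean ratio minus that of the other regions was -0.60 ± 1.01 for Chrm1 (SD, n = 4 pairs, exact p = 0.375) and -0.17 ± 0.40 for Adcy1 (SD, n = 4 pairs, exact p = 0.625), so neither difference exceeded the spread between pairs. Without ILC and Nts the values were -0.52 (exact p = 0.25) and -0.15 (exact p = 0.75). With a pair left out, the Chrm1 value ranged from -1.10, without pair 3, to -0.37, without pair 1, and that of Adcy1 from -0.37, without pair 4, to -0.099, without pair 1. The prior count of 2 reads is as large as the median Sham count of Chrm1 outside the telencephalon, so its ratios there lie nearer to 0 than the counts alone would give.

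Genes that act with Chrm1 and Adcy1 were taken from 6 lists of 108 genes, of which 25 had a name in the study's list. Over 622 combinations of transcript and region, 13 were called lower and 12 higher by edgeR, which is 2.09% and 1.93%, against 0.913% and 1.01% of all combinations. All 25 transcripts are on the list of transcripts the study called, so these shares are not independent evidence. Most of the calls were in Arc and mPoA, where edgeR called 24.6% and 9.59% of all transcripts. In raphe and Nts it called 6.6% and 4.16%. DESeq2 called 1.75% of all combinations lower and 2.58% higher. The median fold change over the 622 combinations was 0.04.

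Of the Gq arm downstream of Chrm1, 5 of 24 genes were measured, with 3 calls lower and 1 higher of 125. Gna11, a Gq-class alpha subunit, ranged from -2.96 to -0.15 over 25 regions, all negative, and edgeR called it lower in mPoA, Arc and Nts. Gnaq, the Gq alpha subunit itself, had a median of -0.49 and was negative in 24 of 25 regions, and edgeR called it in 0 (5 regions negative at an unadjusted p under 0.05, 1 call lower by DESeq2). Dgkz, a kinase that removes diacylglycerol, went the other way, with a median of 0.65 and a call higher in Arc (9 regions by DESeq2). Slc5a7, the choline transporter of cholinergic terminals and the only one of 8 cholinergic genes measured, had a median of -0.35 and no edgeR call (7 regions negative at an unadjusted p under 0.05, 3 calls lower by DESeq2).

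On the cyclic AMP side, Adcy7, the only other cyclase of 9 that could be measured, had a median of -0.46 and was called lower in raphe. Of the effectors of cyclic AMP and the enzymes that break it down, 6 of 27 were measured, with 5 calls lower and 4 higher of 150. Prkacb, a catalytic subunit of protein kinase A, had a median of -0.93 and was negative in 24 of 25 regions. EdgeR called it lower in mPoA and Arc, and DESeq2 did so in 9 regions. Hcn2, a channel gated by cyclic nucleotides, had a median of -0.79 and was called lower in mPoA and Nts. Of the G protein subunits and regulators, 6 of 30 were measured, with 2 calls in each direction. Gnb2, a beta subunit, was called lower in mPoA and Arc, and Rgs10, which speeds the turnoff of G proteins, was called higher in Arc. The calmodulin list, with 6 of 10 genes measured, had 5 calls higher and 2 lower of 150. Calm3 was positive in 25 of 25 regions and called higher in mPoA and Arc, and Camkv (median 0.42) was called higher in Arc. Camk2a, the forebrain kinase activated by calmodulin, had a median of -0.83 with 24 of 25 regions negative, and edgeR called it lower in mPoA.

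The 2 named markers of forebrain excitatory neurons moved in opposite directions between FT and Sham. Camk2a had a negative fold change in 24 of 25 regions, with 4 calls lower by DESeq2 (1 by edgeR, in mPoA). Nrgn, neurogranin, had a positive one in 23 of 25, with a median of 0.87 and 14 calls higher by DESeq2 (1 by edgeR, in raphe). Over all combinations of transcript and region, DESeq2 called 1.75% lower and 2.58% higher. Astrocyte markers were split as well. Slc7a10 was positive in 25 of 25 regions (median 1.00), with 14 calls higher by DESeq2 and 2 by edgeR. Slc6a11 was negative in 24 of 25 (median -1.01), with 8 calls lower by DESeq2 and 3 by edgeR. Gja1, the third named one, was negative in 22 of 25 (median -0.33), with 2 calls lower by DESeq2 and 1 by edgeR, in Arc. In its highest Sham region Gja1 had 444 CPM, against 46.1 CPM for Slc7a10 and 35.1 CPM for Slc6a11 in theirs, so the astrocyte sums are mostly Gja1. The oligodendrocyte marker Opalin had a median of -0.32 with 0 calls by either tool (7 regions negative at an unadjusted p under 0.05), and the microglial markers Cx3cr1 and C1qa had medians of -0.62 and 0.37. In the Sham dorDG, where Camk2a and Nrgn were both highest, Nrgn had 1138 CPM and Camk2a 137 CPM, so their sum follows Nrgn more. In telencephalic libraries of pair 5, the sum had medians of 273 CPM in Sham and 247 CPM in FT. Pair 5 had the lowest median ratio of both Chrm1 and Adcy1. In pair 4 the medians were 91.1 and 210 CPM. The 3 astrocyte markers summed to medians of 430 CPM in Sham and 303 CPM in FT in pair 4 and to 316 and 308 CPM in pair 5. Their part in the Chrm1 and Adcy1 differences was not tested.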

How the data were processed

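The authors deposited one table of counts per library, whole numbers of reads per Ensembl transcript. The submitters' processing notes name STAR, HTSeq, FastQC and the rn5 build, and the library kit was stranded; the strand setting used in counting is not given in the sources used here, so overlapping antisense reads cannot be told apart. Reads were paired-end, 76 bases long. The rows for reads without a feature, ambiguous reads and the like were kept out of library sizes and tests. They held a median of 40.3% (no feature) and 5.52% (ambiguous) of all reads counted for a library, these rows included. No 2 libraries were identical. Samples were grouped by the treatment, region and replicate number in the labels.

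The members and the gene lists were chosen with earlier results of these data known. Gene names came from the study's list, where 1845 of 1989 identifiers carry one, all called by the study in at least 2 regions. FT was compared with Sham in each region with edgeR 4.0.16 in R 4.3.3, by its quasi-likelihood test with TMM scaling, filterByExpr (minimum count 10, minimum total 15) and the replicate number as a block, and with DESeq2 1.42.0 as an alternative, which is the study's tool. Calls needed a 25% change and a p no greater than 0.1 after Benjamini-Hochberg adjustment. Regions were compared in 1 joint edgeR fit per treatment. The same numbers mark FT and Sham samples handled in parallel: deviations from group means correlated at a median r of 0.67 over 95 pairs, above 0.1 in 92. Values by pool used exact two-sided sign-flip permutation tests. Levels and ratios used a prior count of 2, and a count of 0 was bounded at 3 counts over the plain library total, without TMM scaling. Counting intervals and bounds cover counting error only.

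On simulated counts for BLA over 13439 transcripts, edgeR recovered 189 of 200 transcripts changed 3-fold and called 22 unchanged ones. DESeq2 recovered 182 and called 20. In the real BLA libraries edgeR called 0 of 13439 transcripts and DESeq2 264 of 12589, so the tools differed more there than on simulated counts. The simulated recovery is therefore no measure of the power of either tool in these libraries. Text named, for each member, the regions where a tool called it and its 2 highest Sham regions, the 5 closest and 2 most opposed transcripts over regions, and, from each pathway list, the 2 genes with most calls plus Gnaq, Gna11, Slc5a7, Adcy7, Camk2a and Prkacb; a further gene of this rule is not reported here. Alternatives were other size factors, no block, no filter, a stricter threshold, DESeq2, another prior count, and leaving out each replicate. Markers and the letters of the RefSeq windows were described without a test.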

Additional observations from a re-analysis of the deposited data

Results flagged for a closer look

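In 20 of 96 groups of 4 libraries, the highest or lowest library stood apart by Dixon's criterion. Its rate of about 1 in 20 groups by chance holds for independent, normally spread values. CPM are skewed and these groups share pools, so that rate is not a yardstick here. For Chrm1, 17 of them were a high library of replicate 3. In Sham these were InsularC at 84.0 CPM, CMA at 67.4, dorDG at 60.6, CGC at 47.7, venDG at 36.0, BNST at 25.2, MDT at 4.96 and PVN at 0.551 CPM. In FT they were PLC at 65.3 CPM, NAcC at 42.7, LH at 2.76, VMH at 2.60, PAG at 2.10, HB at 1.88, Nts at 1.66, VTA at 0.825 and Arc at 0.797 CPM. The other Chrm1 group was Nts in Sham, where replicate 4 alone held a read, at 0.0883 CPM. A group with reads in 1 library alone is always flagged. This also holds for Arc, VTA and Nts in FT, where replicate 3 held 2, 2 and 3 reads. For Adcy1, the FT library of BLA replicate 3 was high at 7.06 CPM, and the Sham library of BLA replicate 1 was low at 0.763 CPM.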

How the results depend on the processing

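Chrm1 was called lower in FT in 1 region by edgeR, in 6 with DESeq2, in 8 without the filter on low counts, in 2 with ILC reduced to pairs 4 and 5, and in 0 to 2 when a replicate was left out. For Adcy1 the counts were 0 with edgeR, 2, 5 and 1 under the same alternatives, and 0 to 2 when a replicate was left out. Without replicate 3, both genes were called in CGC and dorDG, and without replicate 1 Adcy1 was called in Nts. In these fits edgeR called 189 of 13395 transcripts lower in CGC, 269 of 13598 in dorDG and 2399 of 12164 in Nts. Without the replicate block, Chrm1 was called in 0 regions, its mPoA value was -5.01, and 9 of 13 regions were negative, with CGC at 0.25, venDG at 0.72, LS at 1.48 and BNST at 0.02. Adcy1 stayed negative in 20 of 20. Without replicate 5, 11 of 12 tested regions were negative for Chrm1 and 16 of 18 for Adcy1.

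PLC against ILC was -0.21 for Chrm1 and -0.89 for Adcy1 without the replicate block, 0.28 and 0.033 without the libraries that stand apart, and from -3.61 to 0.61 and -2.33 to 0.29 with a replicate left out. LS against MS was -0.52 for Chrm1 without the block, and leaving out the block also ended the FT calls in CGC against InsularC (1.51 for Chrm1 and 2.51 for Adcy1) and changed no other regional call. Adcy1 in dorDG against venDG was 1.29 without the libraries that stand apart (adjusted p = 0.0826 from edgeR) and 1.20 to 1.37 with a replicate left out, passing without replicate 1 (adjusted p = 0.0675 from edgeR). With median-ratio size factors, the replicate 3 difference of Adcy1 in Sham was -0.0034. The telencephalic difference in Sham stayed above 0 and called under the alternatives run, from 3.83 to 5.16 for Chrm1 and 1.06 to 1.61 for Adcy1. The causes of these changes were not tested. Median Chrm1 counts of 2 reads in Sham and 1 in FT outside the telencephalon limit what can be seen there.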
